A study of Mus musculus with 51 samples.

Results

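The H3K4me2/3 peaks of meiotic prophase were compared between its early stages, leptonema and zygonema, and its later stages, early pachynema, late pachynema and diplonema. The 5 peak lists made with the Abcam antibody, 1 per stage, were merged into 43759 sites. A site was called early when it held a peak at leptonema and at zygonema and at none of the 3 later stages. It was called late when it held a peak at all 3 later stages and at neither early stage, and kept when all 5 lists had a peak there. There were 7083 early sites (16.2% of all sites), 745 late sites (1.7%) and 11294 kept sites (25.8%), and the remaining 24637 sites had other combinations of stages.

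All nuclei came from whole testis of adult wild-type C57Bl/6J males, with no treatment. Fixed nuclei of the 4C DNA content were sorted by fluorescence-activated cell sorting after staining for SCP3 and STRA8 (leptonema) or for SCP3, H1t and SCP1 (the other 4 stages), and their chromatin was sonicated before ChIP. The Abcam antibody (ab8580) recognises H3K4me2 as well as H3K4me3, and its libraries were all made in experiment 2. The same stages were also profiled with an EpiCypher antibody to H3K4me3 in experiments 1 and 2 (10 lists) and with an antibody to H3K9ac in experiment 1 (5 lists), and those 15 lists took no part in choosing the sites. A sorted population is a mixture to some degree, and fewer nuclei with a mark and less mark per nucleus cannot be told apart in these lists.

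Di- and trimethylation of histone H3 at lysine 4 mark active and poised promoters, and dimethylation also marks enhancers. In male meiosis a further source is PRDM9, a zinc-finger histone methyltransferase present at the onset of prophase, which binds a DNA motif and methylates the nucleosomes beside it at the places where SPO11 later makes double-strand breaks, the recombination hotspots. Later in prophase the pachytene gene programme turns on genes used by spermatids and sperm.

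The word GNTGCTNCT (N is any base), which is the core of the motif known for the B6 allele of PRDM9, was searched on both strands in the 200 bp around the centre of every site. It lay in 11.9% of the early sites outside transcription start sites (TSSs), and in 3.86% of windows of the same length 1500 bp to either side of the same centres. None of the 6 widest of these sites had the word in its central window, so the 4 widest early sites outside TSSs that did hold it are shown here, chosen after their values were seen (GRCm38 reference, which is mm10, plus strand, 5′ to 3′, the word or its reverse complement in capitals).
intergenic, chr1:67962291-67962490: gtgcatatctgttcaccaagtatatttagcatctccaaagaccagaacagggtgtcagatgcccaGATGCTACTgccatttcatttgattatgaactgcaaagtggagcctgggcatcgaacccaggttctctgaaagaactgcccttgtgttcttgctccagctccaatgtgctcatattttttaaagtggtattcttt
intergenic, chr3:101713397-101713596: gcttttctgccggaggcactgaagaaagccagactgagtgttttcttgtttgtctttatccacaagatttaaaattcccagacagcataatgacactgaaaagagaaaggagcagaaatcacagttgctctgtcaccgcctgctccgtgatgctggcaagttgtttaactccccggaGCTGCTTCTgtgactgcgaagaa
Sptbn5 exon, chr2:120066614-120066813: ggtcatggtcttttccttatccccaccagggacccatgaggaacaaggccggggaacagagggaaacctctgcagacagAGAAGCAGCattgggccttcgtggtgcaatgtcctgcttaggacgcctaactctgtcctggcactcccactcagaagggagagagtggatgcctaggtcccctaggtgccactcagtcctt
Pear1 exon, chr3:87758907-87759106: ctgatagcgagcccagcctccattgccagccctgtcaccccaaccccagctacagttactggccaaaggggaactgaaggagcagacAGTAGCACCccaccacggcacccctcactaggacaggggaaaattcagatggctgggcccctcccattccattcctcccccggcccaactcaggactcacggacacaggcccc
All 4 sites had an H3K9ac peak at zygonema and none had an H3K4me3 peak in any of the 6 later libraries. The first site (chr1:67961260-67963522) was intergenic, with H3K4me2/3 peaks of 2263 bp at leptonema and 2046 bp at zygonema and H3K4me3 peaks in all 4 leptonema and zygonema libraries. The Pear1 and Sptbn5 sites covered exons and also had H3K4me3 in all 4 of these libraries, and the intergenic site on chromosome 3 had it in 2.

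In the 200 bp around their centres, late sites at TSSs had fewer CG dinucleotides than early or kept ones. This window is centred on the merged site and need not cover the TSS. The central 200 bp of the 3 late TSS sites of protein-coding genes with the widest peaks (Actl9, Rfx4 and Mark2) are shown with every CG in capitals, in the same orientation.
Actl9, chr17:33432746-33432945: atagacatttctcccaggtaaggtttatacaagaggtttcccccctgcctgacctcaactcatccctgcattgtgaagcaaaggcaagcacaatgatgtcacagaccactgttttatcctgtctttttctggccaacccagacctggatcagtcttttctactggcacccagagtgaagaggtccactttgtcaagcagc
Rfx4, chr10:84837460-84837659: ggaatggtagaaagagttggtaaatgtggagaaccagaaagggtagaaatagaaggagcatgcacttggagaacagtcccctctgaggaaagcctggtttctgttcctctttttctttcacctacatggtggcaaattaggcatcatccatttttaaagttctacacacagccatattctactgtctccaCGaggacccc
Mark2, chr19:7297543-7297742: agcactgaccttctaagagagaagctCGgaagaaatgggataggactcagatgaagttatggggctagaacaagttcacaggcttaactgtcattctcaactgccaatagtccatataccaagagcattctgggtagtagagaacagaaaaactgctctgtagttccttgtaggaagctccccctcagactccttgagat
These windows held 0, 1 and 1 CG dinucleotides. Over all 244 late TSS sites the observed over expected CpG ratio was 0.27 and the GC content 47.5%, against 0.81 and 63.3% at the 9859 kept TSS sites and 0.59 and 57.7% at the 1645 early TSS sites.

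The number of sites in each class depended on the length of the lists. The leptonema list held 30943 peaks and the zygonema list 29114, against 17561 for early pachynema, 19711 for late pachynema and 18191 for diplonema, so that the early lists were the longest. When only the 17561 widest peaks of each list were used, 2052 early, 1919 late and 9114 kept sites remained. The excess of early over late sites was therefore much smaller at equal list lengths. The cut took peaks mostly from the leptonema and zygonema lists, so added late sites can hold narrower peaks there. With the wider peaks of each list, those at or above its median width, there were 2995 early, 348 late and 5658 kept sites. The early pachynema list limited the late class, since 2722 sites met the late rule without it. Leaving out the leptonema list gave 1202 late sites. Without the leptonema or the zygonema list, the number of early sites rose to 12988 or 13572. The depth of the libraries cannot be read from the lists, and there was 1 library per stage, so no test was made on these counts.

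Kept sites lay mostly at TSSs, and early and late sites mostly away from them, as did the 24637 sites of other combinations (75.2% outside TSSs, and 59.2% over all 43759 sites). A site was placed at a TSS when it came within 500 bp of where a GENCODE M21 transcript begins, and otherwise in an exon, an intron or intergenic space, in that order. Of the early sites, 76.8% (95% exact binomial interval 75.8 to 77.8) were outside TSSs, with 33.5% intergenic, 27.7% in introns and 15.6% in exons. Of the late sites, 67.2% (63.7 to 70.6) were outside TSSs, with 39.9% intergenic, 20.1% in introns and 7.25% in exons. Only 12.7% (12.1 to 13.3) of the kept sites were outside TSSs. The intervals cover counting error only. The early share was 71.5% at equal list lengths and 49.1% for the wider peaks of each list, and the late share was 58.9% and 37.6%, while the kept share was 5.94% and 2.70%, so the order of early above late above kept held in these settings. With the TSSs of protein-coding genes alone, 82.4% of early and 85.1% of late sites were outside, and these 2 classes changed places, as they did without the early pachynema list (73.2% of early and 73.4% of late sites).

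**Figure D1:**
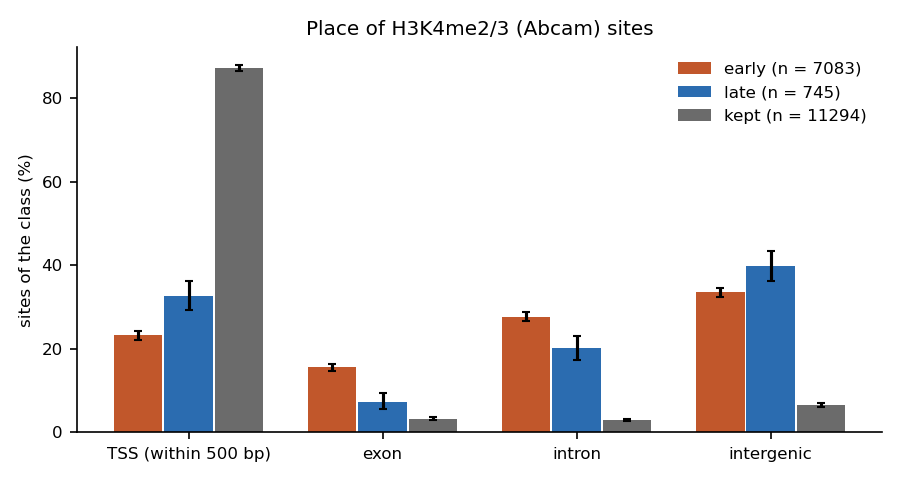
Share of early, late and kept H3K4me2/3 sites (y axis, % of the class) at TSSs, in exons, in introns and in intergenic space (x axis), with bars for the 3 classes and 95% exact binomial intervals. The kept bar at TSSs stands at 87.3%, and the early and late bars there at 23.2% and 32.8%.

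Outside TSSs, early sites were a median of 10952.5 bp from the nearest TSS, late sites 16546 bp and kept sites 9941 bp. Few of the early and late sites were near kept ones: 6.31% of early and 4.19% of late sites outside TSSs lay within 5 kb of a kept site. Soft-masked repeat sequence made up 17.8% of the central windows of early sites outside TSSs and 21.8% of those of late ones, against 27.6% and 26.6% in the windows 1500 bp away. Of the early sites at TSSs, 75.8% (73.7 to 77.9) were at a protein-coding gene and 11.5% at a long noncoding RNA gene alone. At late TSS sites the shares were 45.5% (39.1 to 52.0) and 39.3% (33.2 to 45.8), and at kept TSS sites 94.0% and 4.16%. Late TSS sites thus held the highest share of noncoding RNA genes of the 3 classes.

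Merged sites differed in width between the classes. The median merged width was 986 bp for early sites, 1420 bp for late sites and 2147 bp for kept sites. These medians are not like for like, as a merged site spans peaks of 2, 3 or 5 lists and kept sites lay mostly at TSSs. Outside TSSs the median zygonema peak was 794.5 bp at early and 712 bp at kept sites. The median diplonema peak there was 956 bp at late and 989 bp at kept sites. Early sites at TSSs had median peaks of 896 bp at leptonema and 618 bp at zygonema, and the leptonema peak was the wider of the pair (or equal) at 1173 of the 1645 sites (71.3%). Outside TSSs the order was the opposite, with 651 bp at leptonema and 794.5 bp at zygonema, and the zygonema peak was wider at 3396 of 5438 sites (62.4%). Late sites at TSSs had a median peak of 542.5 bp at early pachynema, 1750.5 bp at late pachynema and 2088.5 bp at diplonema, and only 7 of the 244 were widest at early pachynema. Kept TSS sites were a median of 1485 bp, 1362 bp, 1249 bp, 1754 bp and 1802 bp wide from leptonema to diplonema, so the narrow early pachynema peaks were not particular to the late class. The mean later width was at least 2-fold the mean early width at 685 kept TSS sites, and the opposite held at 550.

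**Figure D2:**
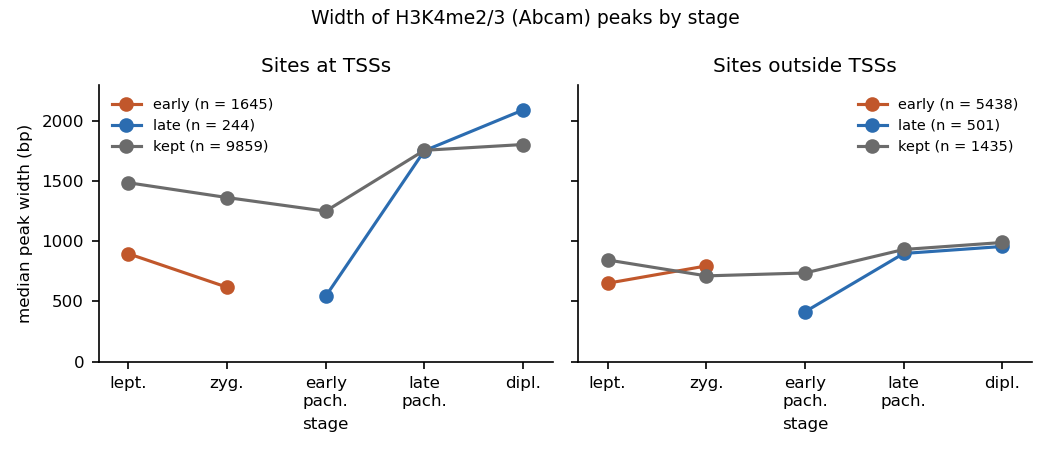
Median width of the H3K4me2/3 peaks (y axis, bp) of early, late and kept sites in each stage that defines the class (x axis), at TSSs (left) and outside them (right). Early sites fall from 896 to 618 bp between leptonema and zygonema at TSSs and rise from 651 to 794.5 bp outside them, and late TSS sites rise from 542.5 bp to 2088.5 bp.

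The early TSS sites with the widest peaks belonged to Adam33 (a metalloproteinase), Htr1d (a serotonin receptor), Ntng2 (netrin-G2), Adm (the peptide hormone adrenomedullin), Dusp26 (a phosphatase) and Pcdh17 (a protocadherin). At Adam33 (chr2:131052432-131056764) the peak was 4117 bp at leptonema and 3328 bp at zygonema, with none at the 3 later stages. Htr1d (chr4:136424182-136427910) had 3476 bp and 3729 bp, and its H3K4me3 peaks were listed in all 4 leptonema and zygonema libraries but never later. Dusp26 (chr8:31089545-31092690) showed the same calls in these 10 libraries. Adm had H3K4me3 in both leptonema libraries and in neither zygonema one, Ntng2 the reverse, and Pcdh17 in none of the 10, so the widest H3K4me2/3 sites differed in whether and when the H3K4me3 antibody called them. Among genes of meiotic entry, Stra8, the retinoic acid target that drives that entry and a marker of the leptonema sort, was early, with peaks of 2234 bp and 1593 bp, then none (chr6:34920026-34922445). Sall4, a zinc-finger factor of spermatogonia, had 3098 bp and 1695 bp (chr2:168764602-168767699). H3K4me3 was called at both genes in both leptonema libraries and in no other.

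Outside TSSs, the widest early sites were an intergenic site (chr2:147560635-147564039), exonic sites in Trip12 (a ubiquitin ligase), Snrnp200 (a spliceosome helicase) and Cyp26b1 (a retinoic acid hydroxylase), an intronic site in Nrg1 (neuregulin 1) and a second intergenic site (chr1:168520947-168523318). The first had peaks of 2692 bp at leptonema and 3405 bp at zygonema, and was the one of the 6 with H3K9ac at leptonema as well as zygonema. Of these 6 sites, 5 had H3K4me3 in all 4 leptonema and zygonema libraries and H3K9ac at zygonema. Cyp26b1 had H3K4me3 only in the leptonema library of experiment 2 and no H3K9ac. None of the 6 had H3K4me3 in a later library.

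The EpiCypher and H3K9ac lists, which the rule did not use, were then read at the early sites. At early sites outside TSSs, H3K4me3 was called at 22.6% and 22.5% of sites at leptonema (experiments 1 and 2), at 57.8% and 41.7% at zygonema, and in the 6 later libraries at 0.0184% to 0.441%. The 4 early libraries did not overlap the 6 later ones, with means of 36.2% ± 17 (SD, n = 4) and 0.12% ± 0.17 (n = 6), a difference of 36 percentage points (two-sided exact permutation test over libraries, p = 0.00476, the smallest that 210 splits allow, Benjamini-Hochberg adjusted p = 0.0190 over 8 tests). At early TSS sites the values were 10.2% and 22.6% at leptonema, 18.1% and 13.5% at zygonema and 0% to 2.01% later. The difference was 15.7 points (exact permutation p = 0.00476, adjusted p = 0.0190), again without overlap. Both tests treated the 2 libraries of a stage as independent, and the SDs include differences between stages. Taken by stage, the comparison is 2 against 3, which cannot give an exact permutation p below 0.1. The later libraries did call kept TSS sites, at 47.3% to 86.0%, and the leptonema and zygonema libraries at 66.8% to 84.8%. The Abcam antibody also recognises H3K4me3, and its later lists (17561 to 19711 peaks) were longer than the later H3K4me3 lists (4883 to 12071). A site without a later Abcam peak was thus unlikely to have a later H3K4me3 call. These tests are therefore not independent of the rule that chose the sites. Libraries of experiment 2 share their experiment number with the Abcam libraries. In experiment 1 alone the differences were 40.2 points outside TSSs and 14.2 points at TSSs, in a design of 2 against 3 libraries that cannot give an exact permutation p below 0.1. Libraries are replicates by label only, and nothing in the labels says which animals they came from.

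H3K9ac at early sites was called almost only at zygonema. Outside TSSs, it was found at 0.257% of sites at leptonema, 53.8% at zygonema, 0.11% at early pachynema and 0.0184% in each of the last 2 stages. At early TSS sites the shares were 0.243% at leptonema and 23.0% at zygonema, with 0 of 1645 sites at each later stage, which allows a share of up to 0.182%. With 2 libraries against 3, the differences of 27 and 11.6 points had the smallest exact permutation p possible, 0.1 (adjusted p = 0.133). The H3K9ac lists were 2823, 16003, 7744, 1727 and 516 peaks long from leptonema to diplonema, and their shares at kept TSS sites were 27.2%, 76.9%, 68.1%, 16.1% and 4.12%. At equal list lengths (the 516 widest peaks) the differences fell to 2.35 and 1.37 points. The early pachynema list was called at 68.1% of kept TSS sites and at none of the early ones. No list of the other 2 antibodies had a peak at 984 early TSS sites (59.8%) and at 1752 early sites outside TSSs (32.2%), against 2.75% of kept TSS sites, so most early TSS sites were seen with the Abcam antibody alone.

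**Figure D3:**
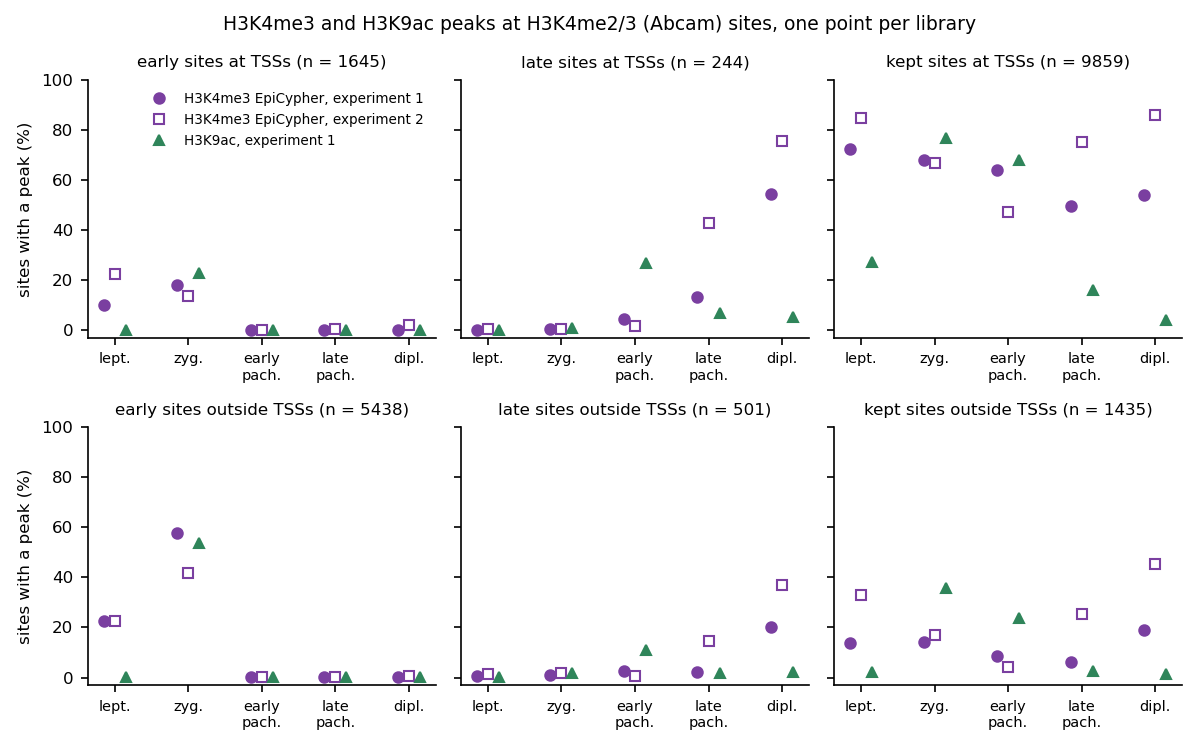
Share of early, late and kept sites (columns) at TSSs (top) and outside them (bottom) with a peak of H3K4me3 (experiments 1 and 2) or H3K9ac (experiment 1), as % of sites (y axis) by stage (x axis), 1 point per library. Early sites outside TSSs reach 57.8% for H3K4me3 and 53.8% for H3K9ac at zygonema and stay below 0.5% at the 3 later stages, and late TSS sites reach 75.8% for H3K4me3 at diplonema.

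Early sites were also split by the stage with the wider Abcam peak. The Abcam antibody also recognises H3K4me3, so this split and the H3K4me3 calls are not independent. Outside TSSs, the 3396 sites wider at zygonema had H3K4me3 at 80.9% and 58.6% in the zygonema libraries and H3K9ac at 72.2%. The other 2042 sites had H3K4me3 at 19.5% and 13.6% and H3K9ac at 23.2%. In the leptonema libraries, H3K4me3 was called at 30.3% and 24.5% of the 3396 sites and at 9.79% and 19.2% of the 2042 sites. The first group held the PRDM9 word in 14.2% of central windows with a CpG ratio of 0.25, and the second in 8.13% with a ratio of 0.47. At TSSs, the 472 sites wider at zygonema had H3K4me3 at 49.6% and 33.9% and H3K9ac at 51.7%, and 14.6% held the word. The 1173 sites wider at leptonema had zygonema H3K4me3 at 5.46% and 5.29%, H3K9ac at 11.5% and the word in 8.70%. At leptonema these 1173 sites had H3K4me3 at 5.63% in experiment 1 and 22.4% in experiment 2, so the 2 experiments differed there. The 472 sites had it at 21.6% and 22.9% at leptonema.

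Early TSS sites included promoters of developmental regulators. Of the protein-coding genes, 5.93% had an early site at a TSS, 0.553% a late one and 49.2% a kept one. Among 39 Hox genes, which specify position along the body axis, 9 (23.1%) had an early site, 9 a kept one and 0 a late one. Among 59 other developmental transcription factors, 14 (23.7%) had an early site, 19 a kept one and 0 a late one. At equal list lengths 2 Hox genes and 4 of the other factors were early, beside 2.28% of all protein-coding genes. With the wider peaks of each list 5 and 16 were early, beside 6.59%. The early Hox genes included Hoxa2, with peaks of 1683 bp at leptonema and 920 bp at zygonema, and Hoxc13, with 1634 bp and 788 bp. The widest early peaks among the other factors were at Nkx2-1 (2801 bp and 1871 bp) and Irx3 (2784 bp and 1316 bp).

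The H3K4me3 libraries of the 2 experiments differed at these genes. At the early sites of the 9 Hox genes, H3K4me3 was called for 8 genes in the leptonema library of experiment 2 and for 0 in that of experiment 1. For the 14 other factors the numbers were 10 and 0. Over the whole lists, the leptonema library of experiment 2 had peaks at TSSs of 31 of 39 Hox genes and 43 of 59 other factors, and that of experiment 1 at 2 and 2, although the 2 libraries held peaks at 9793 and 8160 protein-coding genes. At diplonema the numbers for the other factors were 25 in experiment 2 and 3 in experiment 1. The Abcam lists, all of experiment 2, had peaks at 34, 24, 15, 17 and 13 Hox genes from leptonema to diplonema. H3K4me3 at the early sites of developmental genes was thus called at leptonema in experiment 2 alone, whereas both experiments called early sites outside TSSs.

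Some markers of other testis cells were listed in the Abcam libraries too. Over all protein-coding genes, 65.7%, 60.5%, 54.6%, 56.4% and 54.3% had a peak at a TSS from leptonema to diplonema. Of 10 Sertoli cell markers, 6, 4, 1, 2 and 2 had a peak at a TSS from leptonema to diplonema. Early sites were at 3 of them (30%), Wt1, Clu and Sox8, beside 5.93% of all protein-coding genes. Amh, Fshr and Dhh had no site. Of 8 Leydig cell markers the counts were 2, 1, 1, 1 and 2, with no site at the steroid-synthesis genes Star, Cyp11a1, Cyp17a1, Hsd3b1 and Hsd3b6. Of 12 peritubular, endothelial and macrophage markers they were 4, 4, 0, 1 and 1, with no site at Acta2, Pecam1, Cdh5, Adgre1, Cd68 and Ptprc. In this last list 3 genes (25%) had an early site, and 0 of the Leydig cell markers did. In the H3K4me3 lists of experiment 1, no library had a peak at any gene of these 3 lists. In experiment 2, Sertoli cell markers with a peak numbered 3, 1, 0, 0 and 1 from leptonema to diplonema. Leydig cell markers numbered 1, 1, 0, 1 and 2, and no library had a peak at the others. The part of other cells in the early class was not tested.

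**Figure D4:**
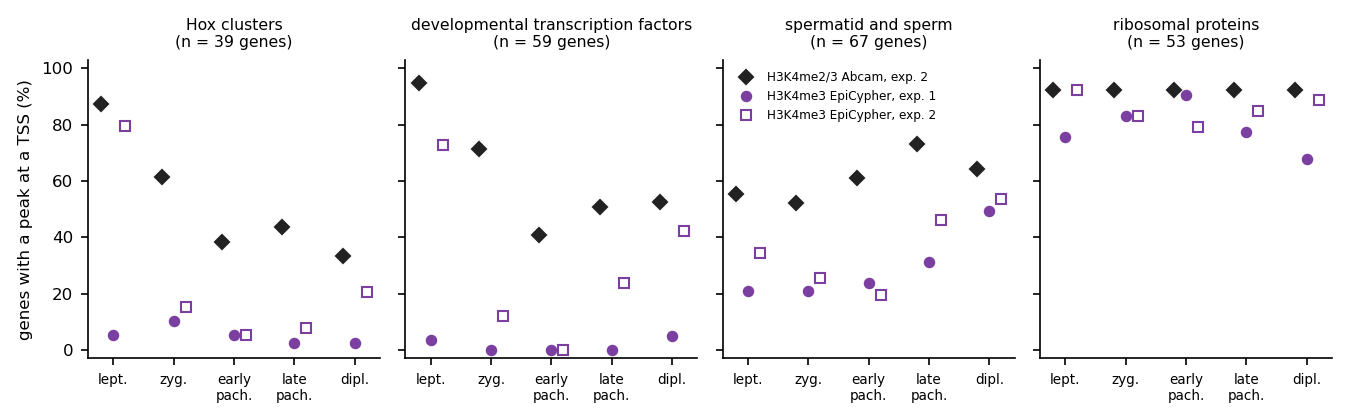
Share of the genes of 4 lists (panels) with a peak at a TSS (y axis, % of genes) by stage (x axis) in the H3K4me2/3 library and in the H3K4me3 libraries of experiments 1 and 2. At leptonema, Hox genes stand at 79.5% in experiment 2 and 5.13% in experiment 1 of H3K4me3, and ribosomal protein genes at 92.5% in all 5 H3K4me2/3 lists.

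Late sites at TSSs were found at genes of sperm structure and metabolism. Of 67 spermatid and sperm genes, 6 (8.96%) had a late site, 3 (4.48%) an early one and 33 (49.3%) a kept one, beside 0.553%, 5.93% and 49.2% of all protein-coding genes. At equal list lengths 13 had a late site, in a setting where the late genes rose from 115 to 472 (2.27% of all). Pgk2, the testis-specific phosphoglycerate kinase, had no peak at leptonema and zygonema, then peaks of 328 bp, 5111 bp and 4982 bp (chr17:40204529-40210227). Acr, the acrosomal protease acrosin, had peaks of 927 bp, 5113 bp and 3919 bp at the 3 later stages (chr15:89565838-89571393). Both were narrow at early pachynema and several kilobases wide at the next stages. The others were Dnah17 (a sperm axonemal dynein, 1116 bp, 3172 bp and 2451 bp), Pgam2 (a phosphoglycerate mutase, 540 bp, 3475 bp and 3227 bp), Actl9 and Prkaca (a protein kinase A catalytic subunit, which also had a kept site at another TSS). H3K4me3 was called at the late sites of all 6 genes in the late pachynema library of experiment 2 and in both diplonema libraries, in none of the other 7, and H3K9ac at 5 of the 6 at early pachynema. The 3 early members were Dnah8, Ropn1 and Ccdc39, and Ropn1 had no H3K4me3 in any library.

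The late TSS sites with the widest peaks were those of Actl9 (an actin-like protein of the sperm head, chr17:33430327-33435365), Rfx4 (an RFX transcription factor), Mark2 (a polarity kinase), Wdfy3 (an autophagy adaptor), Bicral (a BAF complex subunit) and a shared site of Gatad1 and Tmbim7. Actl9 had peaks of 2349 bp, 4539 bp and 5028 bp, and Rfx4 of 2709 bp, 2939 bp and 5455 bp at early pachynema, late pachynema and diplonema. All 6 sites had H3K9ac at early pachynema and H3K4me3 in at least 3 of the 6 later libraries, and none had H3K4me3 at leptonema or zygonema. Wdfy3 was the site with H3K4me3 in all 6 later libraries. Of 12 regulators of the pachytene programme, 2 had a late site (Rfx4 and a gene on chromosome 18 that is not described here). Further late genes known from sperm, chosen after their values were seen, were Odf4 of the outer dense fibres, the CatSper channel subunit gene Catsperb, the soluble adenylyl cyclase gene Adcy10 and the sperm sodium-proton exchanger gene Slc9c1.

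Outside TSSs, the widest late sites covered an exon of Nuggc, introns of Irak3 and Mgat5, and 3 intergenic sites. The Nuggc site (chr14:65623316-65631096) had peaks of 2130 bp, 7781 bp and 7471 bp. The intergenic site at chr6:127793943-127802507 had peaks of 1345 bp, 6201 bp and 7844 bp. All 6 had H3K9ac at early pachynema, as did the 6 widest late TSS sites. Both sets were chosen by peak width. Over the whole class, H3K9ac was called at early pachynema at 11.2% of late sites outside TSSs and 27% of late TSS sites. H3K4me3 was called at each of the 6 in the experiment 2 libraries of late pachynema and diplonema, and at the Nuggc site also in 1 zygonema library.

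At late TSS sites as a whole, H3K4me3 was called at 0% to 0.41% of sites in the leptonema and zygonema libraries, at 4.51% and 1.64% at early pachynema, 13.1% and 43.0% at late pachynema and 54.5% and 75.8% at diplonema (experiments 1 and 2). The stages did not overlap, with means of 0.307% ± 0.205 (SD, n = 4) and 32.1% ± 30.3 (n = 6). The difference (early minus later) of -31.8 points had an exact permutation p of 0.0381 and an adjusted p of 0.102, and so did not pass the threshold of 0.05 after correction. The limits of the tests at early sites hold here too, as the early Abcam lists were also longer than the early H3K4me3 lists. Within the later stages the share was highest at diplonema in both experiments, while early pachynema lay within 5 points of the early stages. At equal list lengths the difference was -16.5 points. Outside TSSs the shares were 0.798% to 2.00% at the early stages and 0.798% to 37.1% later, which overlapped (exact permutation p = 0.1, adjusted p = 0.133), and without the diplonema library of experiment 2 the difference of -11.6 points was -6.75. It was -5.51 at equal list lengths and -22.3 with the wider peaks of each list.

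At late TSS sites H3K9ac was called at 0 of 244 sites at leptonema (which allows up to 1.23%), 0.82% at zygonema and 27% at early pachynema, then 6.97% (late pachynema) and 5.33% (diplonema), and the exact permutation p was 0.3 (adjusted p = 0.343). The early pachynema list was also the longest of the 3 later H3K9ac lists. Relative to the share at kept TSS sites of the same library, H3K9ac at late TSS sites stood at 0.40 (early pachynema), 0.43 (late pachynema) and 1.29 (diplonema). The order of the stages was thus not that of the shares. The diplonema value rests on 13 late sites and a list of 516 peaks, so this order is uncertain. At equal list lengths the difference (early minus later) was -1.84 points, against -12.7 over the whole lists. Outside TSSs H3K9ac was called at 11.2% at early pachynema and at 0.2% to 2.40% elsewhere.

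Kept sites held most genes of the meiotic machinery. A kept TSS site was found at 34 of 36 genes of premeiotic DNA replication, 19 of 21 of double-strand break formation, 13 of 15 of the chromosome axis and synaptonemal complex, 9 of 11 of crossover formation, 16 of 17 of the piRNA pathway and 15 of 18 of meiotic division, against 49.2% of all protein-coding genes and 49 of 53 ribosomal protein genes. None of these lists had a late gene, and 2 had an early one, Uhrf1 (a cofactor of maintenance DNA methylation) and Mov10l1 (a piRNA pathway helicase), both of which had a kept site at another TSS. Over all protein-coding genes the late share was 0.553% and the early share 5.93%. At that late share, lists this short would seldom hold a late gene. In all, 272 of the 1234 early genes and 27 of the 115 late genes also had a kept site. Of 26 genes of spermatogonia and meiotic entry, 12 had a kept site. The sorting markers Sycp3 and Sycp1 were kept, Stra8 was early, and Hist1h1t, the gene of H1t, had peaks only at zygonema (1412 bp) and early pachynema (1319 bp).

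The kept TSS sites with the widest peaks were at Kmt2b, an H3K4 methyltransferase, with Zbtb32; at Tgif1, a homeobox repressor; at Dvl2, Gabarap and Phf23; at Gzf1 and Nxt1; and at Brd2, a bromodomain protein, with H2-DMa. The site of Kmt2b and Zbtb32 (chr7:30586674-30600730) was 4862 bp, 4754 bp, 4245 bp, 13744 bp and 13207 bp wide from leptonema to diplonema. It was wider at late pachynema and diplonema than at the other stages, as were the other 4. H3K4me3 was called at 4 of these 5 sites in all 10 libraries, and at Tgif1 in 8.

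The share of windows with the PRDM9 word was highest at the centre of early sites. In early sites outside TSSs its share fell from 11.9% in the central window to 7.39% and 7.43% in the adjoining windows 200 bp away, and to between 3.35% and 4.17% from 600 bp outward. Early sites at TSSs held it in 10.4% of central windows and 3.65% of those 1500 bp away. Late sites outside TSSs held it in 3.79% and 3.39%, and late TSS sites in 6.15% of central windows (15 sites), within the 1.64% to 6.56% of the windows up to 2000 bp around them. Kept sites held it in 5.45% at TSSs and 5.92% outside. Of early sites outside TSSs with an H3K9ac peak at zygonema, 14.8% held the word, and of those without, 8.56%, and their CpG ratios were 0.22 and 0.46. A match is a description of the sequence and no site of binding.

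**Figure D5:**
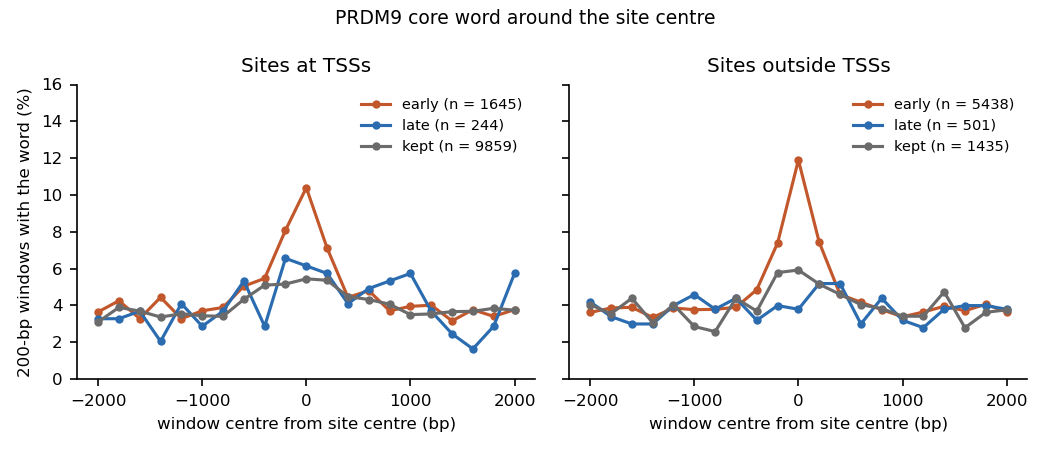
Share of 200-bp windows with the PRDM9 core word (y axis, %) by the distance of the window centre from the site centre (x axis, bp), for early, late and kept sites at TSSs (left) and outside them (right). Early sites peak at 10.4% (TSSs) and 11.9% (outside) at the centre, and late sites outside TSSs hold 3.79% there.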

How the data were processed

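The deposited lists hold the chromosome, start and end of broad peaks (other values, with no score, count or signal). The authors used BWA mem for alignment (mm10), and peaks were called per library by MACS2 2.1.2 (submitters' processing notes) in broad mode against input of the same stage. For H3K9ac the control is not given in the sources used here, and its labels name the antibody as one to H3K4me3 while the titles say H3K9ac. Lists cover chromosomes 1 to 19. A deeper library or one with more reads in peaks can give a longer list, and the depth is unknown, so precision beyond counting error is unknown. The other 31 of 51 samples were not used.

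Peaks that overlapped or adjoined were merged (Python 3.11.15, numpy 2.4.6, scipy 1.17.1), and a peak was counted at a site from 1 bp of overlap. TSSs, exons and genes came from GENCODE M21 and sequence from RefSeq's GRCm38.p6. Shares of sites with a peak were compared by two-sided exact permutation of libraries, with 8 tests adjusted together. Libraries were the unit, so those of a stage were treated as independent. Merging, class calls, placing and the permutation test were checked on artificial data, and the other steps were not. The members and lists were chosen with earlier results of these data known. Named sites were those with the highest mean width rank over the lists that define a class (6 early and 6 late at TSSs of protein-coding genes and as many outside, 5 kept), the early or late members of germ-cell lists, and 4 sorting markers, passing over chromosome 18 and unnamed gene models. A gene was early, late or kept when such a site overlapped a TSS window of it, and could be several. Of the 16 gene lists, all but 2 genes were found on chromosomes 1 to 19. The alternatives were equal list lengths, the wider peaks of each list, a merge distance of 500 bp, overlap of 50% of the peak or site, other TSS definitions, and leaving out each library. The share relative to kept TSS sites and the settings for gene lists were added after seeing the data.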

Additional observations from a re-analysis of the deposited data

Results flagged for a closer look

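Among 12 groups of H3K4me3 shares (early, late and kept sites, at and outside TSSs, in the 4 leptonema and zygonema libraries and in the 6 later ones), 3 had a library far from the others by Dixon's test at the 95% level, which chance alone gives in about 1 in 20 groups. The diplonema library of experiment 2 had a peak at 2.01% of early TSS sites, above the other 5 later libraries at 0% to 0.365%. The leptonema library of experiment 2 had a peak at 32.8% of kept sites outside TSSs, above 13.9% to 17.1% in the other 3. The leptonema library of experiment 1 had a peak at 0 of 244 late TSS sites, where the other 3 early libraries each had 1 site, so that this last flag rests on a count of 1.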

How the results depend on the processing

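The classes came from 1 library per stage and from lists of unequal length, so their sizes depended on the processing. The H3K4me3 differences at early sites moved less, but those tests are not independent of the rule that chose the sites. The settings used for them kept that rule, so they cannot show how much of the difference it brings. With equal list lengths there were 2052 early and 1919 late sites, and 71.5%, 58.9% and 5.94% of early, late and kept sites were outside TSSs. With the wider peaks of each list there were 2995, 348 and 5658 early, late and kept sites, with 49.1%, 37.6% and 2.70% outside. Leaving out each Abcam list in turn gave 7315 to 13572 early and 810 to 2722 late sites, and shares outside TSSs of 73.2% to 84.6% (early), 63.1% to 73.4% (late) and 13.6% to 14.6% (kept). A TSS window of 1000 bp gave 74.1% of early sites outside, and TSSs of protein-coding genes 82.4% of early, 85.1% of late and 18% of kept sites. The cause was not tested, apart from the fewer peaks used by construction. Merging over 500 bp moved none of these beyond their interval. In the H3K4me3 tests at early sites, leaving out each library gave differences of 13.5 to 17.7 points at TSSs and 28.8 to 40.6 points outside, past the threshold (adjusted p up to 0.0476) except without experiment 1 or experiment 2 as a whole (17.2 and 14.2 points at TSSs, 31.9 and 40.2 outside), where the 5 libraries left cannot give a p below 0.1. The 2 late H3K4me3 results and the 4 H3K9ac results did not pass it in any setting and kept their direction. Shares relative to those at kept TSS sites gave the same calls. The experiment number was not taken to pair the libraries, since the deviations from stage means correlated above 0.1 in 6 of 10 pairs of stages and not in all (range -0.20 to 0.43, the highest between late pachynema and diplonema). With the number as a replicate block the differences are unchanged at 15.7, 36, -31.8 and -11.6 points (early at and outside TSSs, late at and outside TSSs), with adjusted p of 0.04, 0.04, 0.133 and 0.16, and no call changed. Of the 1234 genes with an early TSS site, 442 were early at equal list lengths and 341 with wider peaks. Of the 115 late ones 113 were late at equal list lengths, where the late set grew to 472 genes, and 28 with wider peaks. Equal lengths removed mostly leptonema and zygonema peaks, so few late genes could leave the class in that setting.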

Other observations

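Sites that missed the early or the late rule by 1 list were common. There were 1813 sites with peaks at leptonema, zygonema and early pachynema only, against 323 with late pachynema and 221 with diplonema as the only later stage. Their median early pachynema peak was 406 bp wide, and 59.2% of them were outside TSSs. Sites of late pachynema and diplonema alone numbered 1976, with 75.8% outside TSSs and median peaks of 718 bp and 992.5 bp.

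Sites listed at 1 early stage alone differed in place. The 5613 sites of zygonema alone were outside TSSs in 93.4% of cases and the 6409 of leptonema alone in 74.8%, with median widths of 492 bp and 413 bp. Early sites made up 14.0% to 18.1% of the sites of each of the 19 chromosomes, and late sites 0.75% to 3.17%. No hypothesis was tested.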
